A study of Mus musculus with 4 samples.

Results

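Axl, Tyro3 and Mertk are the 3 receptor tyrosine kinases of the TAM family, and Gas6 and Pros1 encode their ligands, Gas6 and protein S. Both ligands are vitamin K-dependent proteins: enzymatic carboxylation of their Gla domain lets them bind phosphatidylserine on dying cells, while their other end binds the receptor. The receptors are known for clearing apoptotic cells and for restraining innate immune signalling in macrophages and dendritic cells, and Axl is also known from mesenchymal, vascular and carcinoma cells. All 5 genes were on the array, with 7 probe sets annotated to 1 of them alone, of the 12393 genes and 20380 probe sets with a single gene symbol. The family was chosen from these same data, on the lower Axl signal in the p62-EGFP tumors, and the other 4 genes were included by their relation to Axl. The difference between groups is therefore described for these genes, and a threshold passed or not passed is not read as a test of them.

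The tumors were grown under the skin of nude mice from iBMK cells, immortalized kidney epithelial cells of newborn mice, whose genotype is ATG5-/- and which carry Bcl-2 in both groups. Cells of 2 tumors expressed EGFP, a fluorescent protein, and cells of the other 2 expressed p62-EGFP, in which EGFP is joined to p62, an adaptor that autophagy normally degrades. The comparison concerns transcripts that differ when p62 is in excess in tumors unable to carry out Atg5-dependent autophagy. Each tumor was measured on 1 Affymetrix Mouse Genome 430A 2.0 array, and the median MAS5 signal of the arrays lay between 57.7 and 60.9. No label ties the tumors of a group to separate mice or to separate cultures, so the spread between them may be partly technical. Of 11 epithelial and kidney markers on the array, 6 were bright enough to be tested, all of them general epithelial genes, among them Krt18, a keratin of simple epithelia (729.6 and 253.9 in EGFP tumors 1 and 2, and then 544.6 and 627.1 in p62-EGFP tumors 1 and 2), and Epcam, an epithelial adhesion molecule (351.0 and 108.9 against 360.7 and 660.3). The kidney markers Pax8 and Cdh16 were near background in every tumor, between 4.7 and 11.2 and between 0.5 and 3.7, so these markers show epithelial transcripts and nothing specific to kidney.

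Axl stood lower in both p62-EGFP tumors. Probe set 1423586_at read 380.7 and 460.5 in EGFP tumors 1 and 2, against 159.4 and 174.0 in p62-EGFP tumors 1 and 2. Values of a gene follow this order of tumors throughout. The groups did not overlap, and the lower EGFP tumor lay well above the higher p62-EGFP tumor. The means were 421 ± 56.4 and 167 ± 10.3 (SD, n = 2 each), so the EGFP mean was 2.52 times the p62-EGFP mean. On the scale of log2(signal + 16), which somewhat understates a change, the p62-EGFP minus EGFP difference was -1.25 (SE 0.17). Of the 7847 genes tested, 95 had a lower difference than Axl, which is no support, since Axl was chosen for its low value. The replicate tumors differed little for Axl, by 0.26 between the EGFP tumors and 0.12 between the p62-EGFP tumors on the log2 scale. These differences between replicates were larger than those of 49.8% and 42.4% of tested probe sets. In bulk tumor RNA, fewer cells of a type cannot be told apart from less RNA per cell.

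The other Axl probe set, 1438621_x_at, gave next to no signal. It read 3.5 and 3.2 in the EGFP tumors against 6.3 and 3.3 in those with p62-EGFP, and it was too dim to be tested. The sources used here do not give the part of the Axl transcript it covers. The Axl difference thus rests on 1 probe set, and averaging both sets gave a log2 difference of -0.58.

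**Figure D1:**
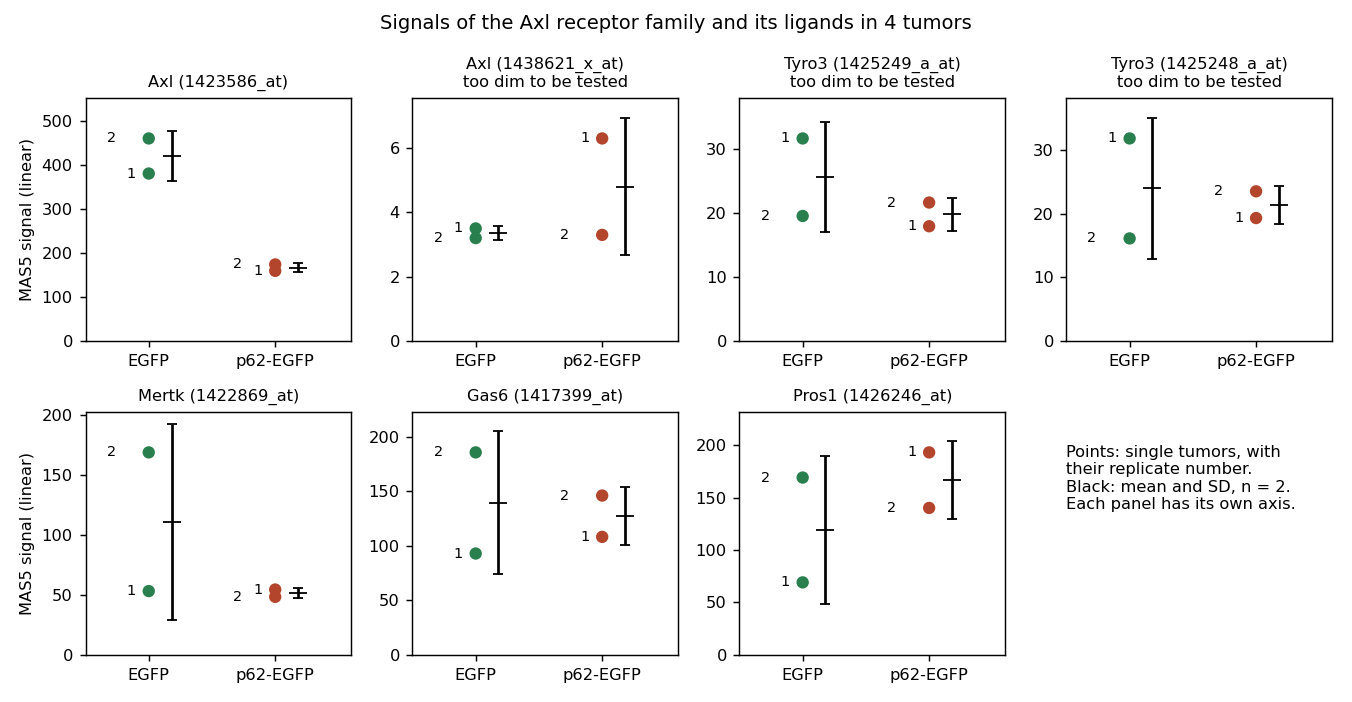
MAS5 signals on a linear scale for the 7 probe sets of the 5 genes, with a separate vertical axis in each panel. Points are single tumors with their replicate number, and black bars show the mean and SD of 2 tumors. The groups are apart for Axl 1423586_at only, and EGFP tumors 1 and 2 lie far apart for Mertk, Gas6 and Pros1.

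The bases upstream of Axl are shown because the transcript differed between the groups and because the levels of factors known to act on such promoters were measured on the same arrays. They are the 250 bases before the RefSeq start of Axl on the minus strand of chromosome 7 (GRCm38.p6, chr7:25788734-25788983), written 5′ to 3′ in the direction of the gene. The capitals mark matches to the searched motifs.
Axl: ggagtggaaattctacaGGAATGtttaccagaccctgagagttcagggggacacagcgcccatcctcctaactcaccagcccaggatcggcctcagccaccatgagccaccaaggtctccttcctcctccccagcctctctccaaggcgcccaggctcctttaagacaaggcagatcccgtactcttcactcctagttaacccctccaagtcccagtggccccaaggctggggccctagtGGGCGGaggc

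Motifs of 3 kinds were searched on both strands: the GC box GGGCGG, bound by factors of the Sp family, the AP-1 motif TGANTCA, bound by Fos and Jun dimers, and GGAATG, bound by the TEAD partners of YAP. In the Axl window 1 GC box lay 10 to 5 bases before the start and 1 GGAATG lay 233 to 228 bases before it, and the matches did not overlap. Tyro3, Mertk, Gas6 and Pros1 held 3, 3, 4 and 5 GC box matches in windows of the same length and no GGAATG, and TGANTCA was in none of the 5 windows. The Pros1 matches 12 to 7 and 8 to 3 bases before the start overlapped each other. Among 32851 RefSeq windows of 250 bases, 32.7% held GGGCGG, 6.75% held TGANTCA and 12.6% held GGAATG. A match of letters is a description of the window and not evidence of binding.

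Tyro3, the receptor best known from brain and other tissues outside the immune system, was dim in every tumor. Probe set 1425249_a_at read 31.6 and 19.5 in the EGFP tumors against 17.9 and 21.6 in those with p62-EGFP. Probe set 1425248_a_at read 31.8 and 16.1 against 19.3 and 23.5. The groups overlapped in both probe sets, and EGFP tumor 1 was the highest in both. The mean of each was below the level required for testing, the 40th percentile of log2 means at 5.60, so Tyro3 was not tested. Its log2 differences, -0.2 and -0.07 for these probe sets, come from signals close to background.

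Mertk, the main TAM receptor of macrophages, was high in 1 tumor. It read 53.3 and 169.1 in the EGFP tumors against 54.6 and 48.5 in those with p62-EGFP. EGFP tumor 2 stood alone, and EGFP tumor 1 lay between the p62-EGFP tumors. The means were 111 ± 81.9 and 51.6 ± 4.31 (SD, n = 2 each), and the log2 difference of -0.75 (SE 0.47) depended on that tumor: it was -0.04 without EGFP tumor 2 and -1.46 without EGFP tumor 1. The EGFP tumors differed by 1.42 on the log2 scale, a larger difference than for 96.9% of tested probe sets.

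Gas6, the ligand that activates all 3 receptors, overlapped between the groups. It read 93.0 and 185.8 in the EGFP tumors against 108.3 and 146.2 in those with p62-EGFP. Both p62-EGFP tumors lay between the EGFP tumors, and the means were 139 ± 65.6 and 127 ± 26.8 (SD, n = 2 each). The log2 difference was -0.06 (SE 0.34). Its sign turned with the tumor left out: leaving out EGFP tumor 2 gave 0.38 and EGFP tumor 1 -0.51, and leaving out p62-EGFP tumor 1 gave 0.13 and its partner -0.25.

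Pros1, which encodes protein S, a ligand of Tyro3 and Mertk and a cofactor of the anticoagulant protein C, was lowest in EGFP tumor 1. It read 69.2 and 169.2 in the EGFP tumors against 193.2 and 140.2 in those with p62-EGFP. EGFP tumor 2 lay between the p62-EGFP tumors, so the groups overlapped. The means were 119 ± 70.7 and 167 ± 37.5 (SD, n = 2 each), with a log2 difference of 0.53 (SE 0.40). Without EGFP tumor 1 the difference was -0.03, and without EGFP tumor 2 it was 1.09.

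Across the 4 genes that could be tested, the p62-EGFP tumors were below each EGFP tumor for 1, Axl, and above them for 0. Over the 7847 tested genes, each by its brightest probe set, these shares were 22.0% below and 26.4% above. None of the 4 passed limma with a Benjamini-Hochberg adjusted p of 0.05, and 1 had an unadjusted p below 0.05. Of the 13576 probe sets tested, 12 passed, which is 0.0884%. When EGFP tumor 1 was left out 2 of the 4 passed, against 20.9% of all probe sets tested in that fit, and likewise 2 without EGFP tumor 2, against 9.53%, the spread then coming from the p62-EGFP pair alone. Nothing is read from these counts, since this contrast chose the family. Between the EGFP tumors the spread of Axl was smaller than that of the others. These tumors differed for Mertk, Gas6 and Pros1 by more than 96.9%, 92.7% and 95.4% of tested probe sets, against 49.8% for Axl. The p62-EGFP tumors differed for Gas6 and Pros1 by more than 91.0% and 93.0% of probe sets, by 0.38 and -0.42 on the log2 scale (tumor 2 minus tumor 1). For that pair Mertk, at 47.1%, was close to Axl, at 42.4%. Axl was chosen for a difference between groups, which favours a small spread.

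**Figure D2:**
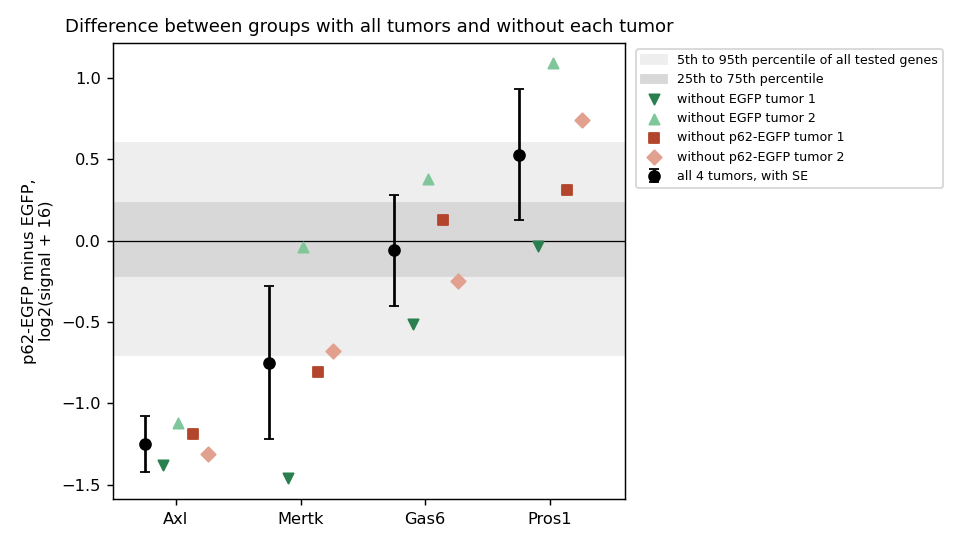
Difference between groups, p62-EGFP minus EGFP on the log2(signal + 16) scale, for the 4 genes that could be tested. Black circles with bars are the difference and SE with all tumors, coloured marks leave out 1 tumor each, and grey bands give percentiles of the 7847 tested genes. The Axl values lie between -1.38 and -1.12, whereas Mertk spans -1.46 to -0.04, and Gas6 and Pros1 have values on both sides of 0. Axl was chosen for its lower signal with p62-EGFP, and its groups did not overlap, so no tumor left out could turn its sign.

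The genes whose pattern over the 4 tumors was closest to that of Axl were Rgs5, Cerk, H2-K1, Fuca2 and Tspo. Closeness is the distance between log2 values centred on each gene's own mean, over 12532 probe sets of other genes, and the distances ran from 0.101 to 0.153. Rgs5, a regulator of G protein signalling that marks pericytes, read 319.2 and 367.1 in the EGFP tumors against 137.6 and 137.5 in those with p62-EGFP. Cerk, which encodes ceramide kinase, read 106.5 and 143.7 against 36.7 and 46.3. The other 3 encode an MHC class I heavy chain (H2-K1), a fucosidase (Fuca2) and a mitochondrial cholesterol-binding protein (Tspo). All 5 had groups that did not overlap, with log2 differences between -1.37 and -1.13, where 22.0% of all tested genes lay below both EGFP tumors. Both traits follow from picking genes close to Axl, so nothing is read from them. The H2-K1 probe set can bind transcripts of related MHC genes.

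For the other members, the groups overlapped for 6 of the 9 closest genes; Acp2 and Mylk were lower and Col11a1 was higher in both p62-EGFP tumors. Mertk was closest to Cyba, a subunit of the phagocyte NADPH oxidase (434.2 and 1225.9 in EGFP tumors, 447.3 and 397.3 in p62-EGFP tumors), to the lysosomal phosphatase gene Acp2 (80.9 and 247.3 against 78.4 and 78.8) and to Mylk, a myosin light chain kinase (47.5 and 138.5 against 43.4 and 39.4). Gas6 was closest to Gyg, which encodes the glycogen primer glycogenin (170.7 and 331.6 against 208.0 and 271.5), to Naaa, a lysosomal amidase, and to D13Ertd608e. Pros1 was closest to Olfml3, Reln and the collagen gene Col11a1 (68.8 and 141.2 against 172.2 and 147.1), at distances of 0.226 to 0.235. Reln, an extracellular matrix glycoprotein, read 75.2 and 173.0 against 206.3 and 121.3. With 4 tumors, many genes can share a pattern, and likeness is given here as a description. Whether groups overlap follows largely from picking genes by closeness, so nothing is read from these counts.

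**Figure D3:**
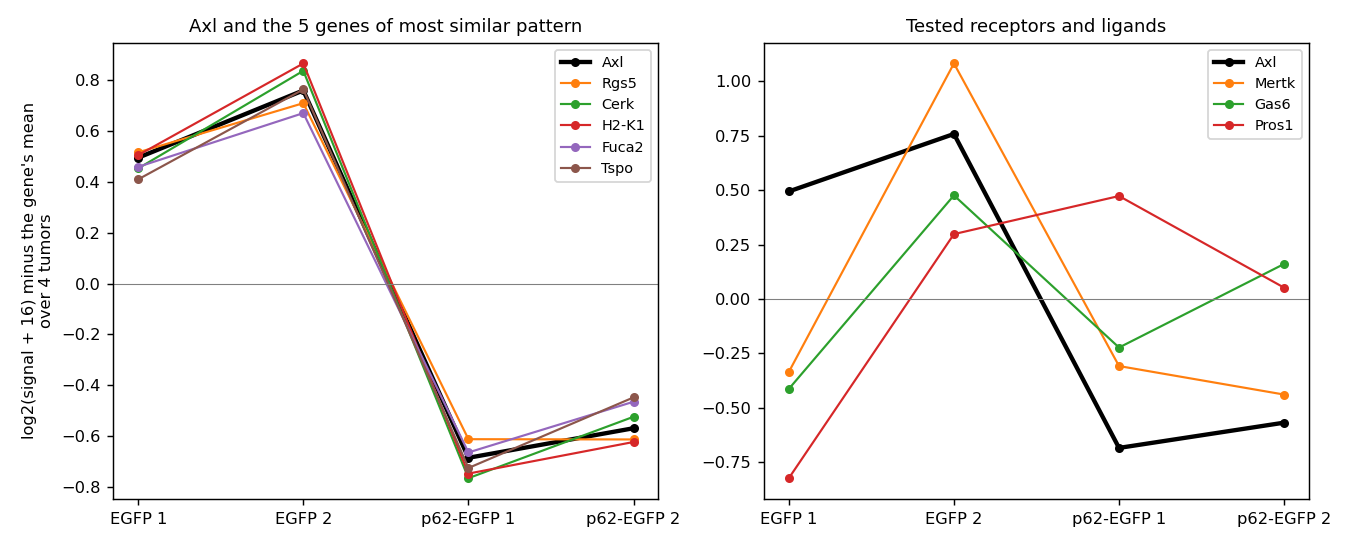
Values of log2(signal + 16) minus the gene's mean over the 4 tumors, with lines joining the values of a gene and no order among the tumors. On the left, Axl (black) and its 5 closest genes, picked for this pattern, are high in both EGFP tumors and low in both p62-EGFP tumors. On the right, Mertk, Gas6 and Pros1 each follow another pattern than Axl.

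Host cell transcripts differed between the tumors and are given beside these genes. All 13 tested markers of macrophages and myeloid cells were highest in EGFP tumor 2, the tumor in which Axl, Mertk and Gas6 were also highest. Their summed signal over 14 genes was 1406 and 11331 in the EGFP tumors against 2500 and 2604 in those with p62-EGFP, and no marker was at 0 in any tumor. No share of all tested genes highest in EGFP tumor 2 is given here, so nothing is read from the count of 13. C1qa, a complement component made by macrophages, read 248.6 and 1765.4 against 427.3 and 409.9. The lysozyme gene Lyz2 read 314.1 and 1454.7 against 643.5 and 686.0. The macrophage sum was lowest in EGFP tumor 1, as Gas6 was, whereas Axl there (380.7) was above both p62-EGFP tumors (159.4 and 174.0). Dendritic cell markers, summed over 4 genes, stood at 322 and 3139 against 319 and 435. Most of that sum was Cd74, the MHC class II invariant chain that macrophages also express: without it the other 3 summed to 32 and 296 against 42 and 36, and only 2 of the 4 were bright enough to be tested. The part of these cells in the Axl, Mertk and Gas6 values was not tested.

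Most endothelial and mast cell markers tested were higher in both EGFP tumors, as Axl was, whereas those of pericytes and smooth muscle were divided. For endothelial cells, the p62-EGFP tumors lay below both others for 7 of 8 tested markers, and the sum over 12 genes was 558 and 759 with EGFP alone against 285 and 372 with p62-EGFP. Over all tested genes, 22.0% lay below both EGFP tumors and 26.4% above, the background for the counts of these 3 lists. Esam, an endothelial adhesion molecule, read 85.3 and 107.7 against 45.5 and 55.3. For pericytes and smooth muscle, 3 of 6 were lower and 2 higher, with sums over 10 genes of 1011 and 1036 against 831 and 888. That order rested on Rgs5, also the closest pattern to Axl: without it the sums were 692 and 668 against 693 and 751. Rgs5 was among the lower ones, whereas the smooth muscle actin gene Acta2 read 180.7 and 173.7 with EGFP alone against 237.5 and 310.6 with p62-EGFP. Of 4 tested mast cell markers 3 were lower, Kit being the exception (55.6 and 74.3 against 97.3 and 73.3), and the sum over 8 genes was 696 and 525 against 190 and 122. No marker of these 3 lists was at 0, and their part in the Axl value was not tested.

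Of 10 fibroblast markers 9 were lowest in EGFP tumor 1, where Pros1 was also lowest, the exception being Pdgfra (69.1 and 110.0 against 57.5 and 109.2). Their sum over 10 genes was 1170 and 3812 in the EGFP tumors against 2720 and 3453 in those with p62-EGFP, and none was at 0. As no share of all tested genes lowest in EGFP tumor 1 is given, nothing is read from the count of 9. Col1a2, a chain of type I collagen, read 235.0 and 857.6 against 622.4 and 803.2, and the matrix gene Postn read 132.5 and 200.6 against 524.8 and 505.1. The epithelial and kidney sum over 11 genes was 1912 and 749 against 1663 and 2471, so the tumor with the highest macrophage sum had the lowest epithelial sum. The part of fibroblasts in the Pros1 value was not tested.

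**Figure D4:**
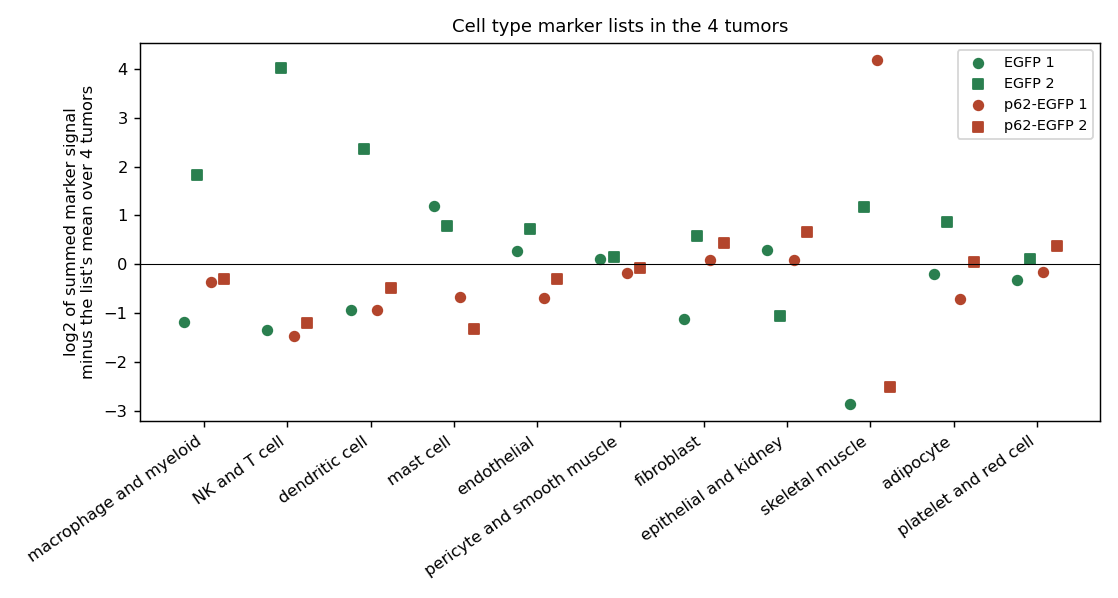
Summed MAS5 signal of each fixed list of cell type markers as log2 minus the list's mean over the 4 tumors. Points are single tumors. EGFP tumor 2 stands far above the others for the macrophage, NK and T cell and dendritic cell sums, the mast cell and endothelial sums are higher in both EGFP tumors, and the skeletal muscle sum is high in p62-EGFP tumor 1.

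Of the 141 genes in 7 lists around the family, 124 were named on the array, 2 of them by an updated symbol, and 82 were tested, and 0 passed limma with a Benjamini-Hochberg adjusted p of 0.05. At an unadjusted p below 0.05 there were 12 of 82 (14.6%), against 14.8% of all tested genes. The p62-EGFP values lay under both EGFP values for 21 (25.6%, against 22.0% of all tested genes) and above them for 11 (13.4%, against 26.4%), and these all-gene shares are the background for the counts of each list. The median log2 difference was -0.11 against 0.014 over all tested genes. The count of genes passing depended on the EGFP tumors: 30 of 81 tested passed without EGFP tumor 1 (37.0%, against 25.2% of all genes) and 18 of 82 without EGFP tumor 2 (22.0%, against 11.8%). A gene counts here where any of its probe sets passed, and in both fits the spread comes from the p62-EGFP pair alone.

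The vitamin K cycle, which both ligands need to become active, had its members on opposite sides. Vkorc1, the reductase that regenerates vitamin K, read 420.3 and 251.6 in the EGFP tumors against 832.2 and 809.4 in those with p62-EGFP. Both p62-EGFP tumors were higher, by 1.29 on the log2 scale (SE 0.25, limma adjusted p = 0.196). Ggcx, the carboxylase that modifies the Gla domain, read 75.3 and 47.5 against 30.0 and 36.4, with a log2 difference of -0.63 (SE 0.25, limma adjusted p = 0.343), the EGFP tumors being higher. Neither passed. Calu, a calcium-binding protein of the secretory pathway that acts on the carboxylation system, overlapped between groups (1066.0 and 847.7 against 1079.8 and 843.3). Of 11 other genes of Gla domain proteins, 8 were on the array and 2 were bright enough to be tested. Mgp, which encodes matrix Gla protein, an inhibitor of calcification, read 200.3 and 319.4 against 308.7 and 257.5, and Prrg2, a transmembrane Gla protein, 48.1 and 29.7 against 31.7 and 36.9.

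The sheddases Adam10 and Adam17, metalloproteases that release receptor ectodomains from the cell surface, overlapped between groups. Adam10 read 511.2 and 622.8 in the EGFP tumors against 608.7 and 615.9 in those with p62-EGFP. Adam17 read 159.1 and 268.4 against 206.2 and 229.6.

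Among signalling partners of the receptors, 21 of 30 genes were tested, with 9 below both EGFP tumors and 2 above, where 22.0% and 26.4% of all tested genes lay, and a median log2 difference of -0.13. The 4 with the smallest p were Socs3, Elmo1, Nck2 and Pik3r1, with limma adjusted p-values of 0.199, 0.222, 0.249 and 0.294. Socs3, an inhibitor of cytokine signalling of the family that TAM receptors induce, read 204.9 and 290.8 with EGFP alone against 95.3 and 114.3 with p62-EGFP. Elmo1, a part of the Rac-activating machinery of engulfment, read 69.6 and 92.0 against 33.5 and 40.5. Nck2, an adaptor that binds phosphorylated receptors, stood the other way (135.0 and 108.1 against 193.0 and 201.0). Pik3r1, a regulatory subunit of PI3-kinase, read 156.2 and 149.4 against 109.8 and 96.9. For these 4 genes the groups did not overlap, and none passed.

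For other genes of phosphatidylserine recognition and clearance of dead cells, the median difference between groups depended on EGFP tumor 2. Of 26 genes, 16 were tested and 12 were highest in EGFP tumor 2, as Mertk and Gas6 were. The share of all tested genes highest in that tumor is not given here, so nothing is read from this count. The median log2 difference was -0.36, and over the same 16 genes it was 0.21 without EGFP tumor 2 and -0.74 without EGFP tumor 1. The 4 with the smallest p were Lrp1, Anxa5, Cd36 and Itgav, with limma adjusted p-values between 0.311 and 0.512. Lrp1, an endocytic receptor, read 123.2 and 205.6 against 76.9 and 96.9. Cd36, a scavenger receptor, read 96.9 and 461.9 against 38.2 and 93.7. Anxa5, which binds phosphatidylserine, read 801.5 and 1123.4 against 735.7 and 665.8. The integrin gene Itgav read 434.5 and 418.7 against 356.4 and 372.6.

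Of 50 other receptor tyrosine kinase genes listed, 24 were tested, and their values are given beside Axl without a rank, since Axl was chosen for its low value. Their log2 differences ran from -1.0 to 0.72, with a median of 0.06, and 3 lay below and 4 above both EGFP tumors. The lowest was Kdr, a VEGF receptor of endothelial cells, at 61.9 and 81.2 with EGFP alone against 31.1 and 24.0 with p62-EGFP (log2 difference -1.0, SE 0.22, limma adjusted p = 0.214). Pdgfrb, a receptor of pericytes and fibroblasts, read 65.9 and 154.4 against 42.9 and 57.6, and Flt4, a receptor of lymphatic endothelium, 56.5 and 53.1 against 33.8 and 37.2. Epha1, an ephrin receptor of epithelial cells, was the highest of the 24, at 49.8 and 27.3 against 75.7 and 68.0. Epha3, another ephrin receptor, was too dim on average to be tested but stood higher in both p62-EGFP tumors (4.3 and 0.3 against 65.0 and 52.1), and it is named here after its values were seen. The limma adjusted p-values of Kdr, Pdgfrb, Flt4 and Epha1 lay between 0.214 and 0.377.

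Targets of YAP differed in direction, and so did genes that encode factors known to act on Axl transcription. Of 18 genes that encode such factors or are targets of YAP and AP-1, 14 were tested, with 3 below and 3 above both EGFP tumors. The median log2 difference was -0.03, and over the same 14 genes it was 0.19 without EGFP tumor 1. Fos, a subunit of AP-1, read 2173.5 and 445.8 in the EGFP tumors against 100.8 and 116.5 in those with p62-EGFP (limma adjusted p = 0.219). The EGFP tumors differed for Fos by -2.25 on the log2 scale (tumor 2 minus tumor 1). Jun, its AP-1 partner, overlapped between groups (1959.8 and 668.5 against 766.8 and 1117.9, log2 difference -0.3). Ccn2, a target of YAP also called Ctgf, stood higher in the p62-EGFP tumors, at 132.7 and 136.6 against 311.7 and 375.3 (log2 difference 1.25, SE 0.17, limma adjusted p = 0.161). Ankrd1 and Amotl2, likewise targets of YAP, were lower in both p62-EGFP tumors, at 61.5 and 182.8 against 54.0 and 31.7 and at 52.5 and 79.1 against 42.5 and 50.9. Fos, Ccn2, Ankrd1 and Amotl2 did not pass. Factors tied to the motifs found in the Axl window were added after their values were seen. Groups overlapped for Sp1 (1271.7 and 969.4 against 1068.4 and 1017.2), Sp3, Tead2 and Tead3, and Tead1 and Tead4 were too dim to be tested. Yap1 (315.1 and 314.2 against 372.8 and 343.4) and Wwtr1 (562.5 and 498.6 against 587.2 and 570.2) were higher in both p62-EGFP tumors. The part of these factors in the Axl value was not tested.

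The 5 genes lie on 4 chromosomes: Axl on 7, Tyro3 and Mertk on 2, Gas6 on 8 and Pros1 on 16. The median log2 difference of the tested genes was 0.07 on chromosome 7 (551 genes), 0.11 on chromosome 2 (627 genes), -0.22 on chromosome 8 (417 genes) and 0.17 on chromosome 16 (261 genes). The Gas6 difference of -0.06 was thus above the median of its chromosome. Among the 3 nearest tested genes on each side of Axl, a comparison added after the data were seen, the log2 differences ran from -0.99 to 0.10 with a median of -0.10. Tgfb1, which encodes TGF-beta 1, was the lowest of these 6, at 265.9 and 243.0 in the EGFP tumors against 119.0 and 121.1 in those with p62-EGFP. Rab4b, a small GTPase gene, was lower as well (163.4 and 198.5 against 119.9 and 113.5), and the groups overlapped for the other 4. The shares over all tested genes were 22.0% below both EGFP tumors and 26.4% above. Of the 6 such neighbours of Mertk, Gas6 and Pros1, 1, 2 and 0 were lower in both p62-EGFP tumors, and 1, 0 and 3 were higher. Nothing is read from these counts.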

How the data were processed

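Biotin-labelled cRNA of 4 tumors was hybridized to 1 array each. The authors deposited linear 1-colour intensities, made with MAS5 per the submitters' processing notes; the sources used here give no version. After 2% of probe sets were trimmed from either end, each array had a mean of 150.04, and the deposited scaling was kept. Of 22690 probe sets, 64 controls were left out. Genes were named through the platform annotation, only where a probe set had 1 symbol (20380 of 22626).

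Signals were transformed as log2(signal + 16) and tested where the mean was at or above the 40th percentile (13576 probe sets, 7847 genes). The comparison used limma 3.58.1 (lmFit, then eBayes with an intensity trend; R 4.3.3). Its p-values are two-sided and Benjamini-Hochberg adjusted over the tested probe sets. On simulated data with independent normal noise, only the mean estimates of known changes were checked. That check does not bear on the calls in these data. A list gene was represented by its brightest probe set. Apart from the family itself, named genes are the 4 of each pathway list with the smallest p, up to 3 markers of highest mean per cell type, and the closest patterns (5 for Axl, 3 for the others). Genes next to the members, Epha3, Jun and the factors tied to the motifs in the Axl window were added later. The members and lists were chosen with earlier results of these data known. With 2 against 2 tumors, an exact two-sided test of 1 value cannot go below p = 0.333, and the number of arrays limits the precision. Promoter windows are from RefSeq (GRCm38.p6), matched by symbol for 5 of 5 genes. Tables and plots used Python 3.11.15, numpy 2.4.6, pandas 2.3.3 and matplotlib 3.10.9. Alternatives covered scaling, pseudocount, filter, variance trend, a replicate block, averaging of probe sets and leaving out each tumor.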

Additional observations from a re-analysis of the deposited data

How the results depend on the processing

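The log2 difference of Axl kept its sign under 13 of 13 alternatives, from -1.38 to -0.58. It was -1.07 with a pseudocount of 64, and -0.58 when the bright and the dim Axl probe set were averaged. Leaving out 1 tumor gave -1.38 to -1.12 and could not turn the sign, since the groups did not overlap. The kept sign is no support for the difference, which chose the family. Mertk stayed below 0 under 12 of 12 alternatives and was too dim to be tested at a filter of the 60th percentile. Gas6 was below 0 under 11 of 13 alternatives and Pros1 above 0 under 12 of 13.

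The number of probe sets past the threshold was 12, and it was 6 with no filter, 7 with the filter at the 60th percentile, 37 with the replicate block, 1 with the probe sets of a gene averaged and 0 to 2835 when 1 tumor was left out. Genes of the 7 lists past the threshold numbered 0, and 0 to 30 when 1 tumor was left out. The deviations of same-numbered tumors from their group means correlated at 0.082 across probe sets, so the numbers were not taken to pair the tumors, and the replicate block changed no call among the family or the listed genes. Tyro3 and the dim Axl probe set are limited by signal close to background. The sums of pericyte markers without Rgs5 and of dendritic cell markers without Cd74 were added after the data were seen. Their log2 differences between groups went from -0.25 to 0.08 and from -1.43 to -1.33.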
